A study of Homo sapiens with 6 samples.

Results

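The mitochondrial genome and its long copy on chromosome 1 carried 16 of the 1743 peaks deposited for RBMX and RPA1 in 293T cells. Members are all peaks that touch, by at least 1 bp, the mitochondrial genome or a stretch of 6001 bp on chromosome 1 (hg38). The stretch holds the copy's annotated pseudogenes, from 629062 to 634922, with a margin of 62 bp before and 78 bp after them. Of these peaks, 14 lay on the copy and 2 were the whole mitochondrial genome. The stretch and the genome were chosen by the position of peaks in these same lists, so the presence of peaks there is a description and carries no test. 293T is a human embryonic kidney line that takes up plasmids readily.

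Cells carried Flag-RBMX or Flag-RPA1 after transfection, and both groups were kept in camptothecin, a topoisomerase I inhibitor, for 24 hours. Chromatin was sheared by sonication and pulled down on beads against the Flag tag, so the tagged, transfected proteins were measured and not the cells' own. Each protein had 2 precipitations with a peak list each. Input samples, 1 per protein, were not analysed here, and no precipitate from cells without a Flag construct or without camptothecin was used here. The labels do not tell whether a protein's precipitations came from separate cultures. The RBMX and RPA1 libraries had 20199680 and 20089972 tags in replicate 1 and 6664290 and 6889249 tags in replicate 2. The lists hold 258 and 360 peaks in replicate 1 and 598 and 527 peaks in replicate 2 in the same order of proteins. A peak's fold is the authors' own value over the background of its list, and the callers differ between the replicate numbers, so levels are set side by side only within a replicate number.

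The mitochondrial genome is a small circle present in many copies per cell that encodes ribosomal RNAs, tRNAs and subunits of the respiratory chain and of ATP synthase. Pieces of it have been inserted into the chromosomes over evolutionary time and are inherited there as pseudogenes. RBMX belongs to the hnRNP proteins, which bind RNA in the nucleus. RPA1 is the largest subunit of replication protein A, which coats single-stranded DNA there. Where a nuclear copy is nearly identical to mitochondrial DNA, a short read can belong to either place. How the aligned reads were divided between them is not given in the sources used here, so the origin of the signal on the copy is uncertain.

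The RefSeq annotation of GRCh38.p14 places 8 genes inside the stretch. They follow the mitochondrial gene order. MTND1P23 (629062 to 629440) and MTND2P28 (629640 to 630686) are pseudogenes of ND1 and ND2, subunits of respiratory complex I. MTCO1P12 (631074 to 632616) and MTCO2P12 (632757 to 633438) are pseudogenes of the cytochrome c oxidase subunits COX1 and COX2. MTATP8P1 (633535 to 633741) and MTATP6P1 (633696 to 634376) are pseudogenes of the ATP synthase subunits ATP8 and ATP6. MTCO3P12 (634376 to 634922) is a pseudogene of COX3, and the microRNA gene MIR12136 (632615 to 632685) sits where the mitochondrial tRNA gene TRNS1, for serine, would be. The starts of the copy's genes from MTND2P28 onward lay between 625169 and 625171 bp beyond the starts of their mitochondrial counterparts. A position on the copy is therefore translated below to the mitochondrial genome by subtracting 625170, which is exact to a few bases. MTND1P23 holds 379 bp against 956 bp of ND1 and MTCO3P12 holds 547 bp against 784 bp of COX3, so the copy begins inside ND1 and ends inside COX3.

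Sequence of the copy was at hand for MIR12136 and for the edge of the copy, from RefSeq on GRCh38.p14; of the 8 genes only MIR12136 had an entry. The hairpin of MIR12136 (chr1:632615-632685, minus strand) is shown because an RBMX peak of replicate 2 ended in it, and no peak of the other 3 lists touched it. Capitals in the hairpin mark the 69 of 71 bases under that peak, and capitals in the mature microRNA (chr1:632668-632685, minus strand) mark the seed, bases 2 to 8.
MIR12136 hairpin: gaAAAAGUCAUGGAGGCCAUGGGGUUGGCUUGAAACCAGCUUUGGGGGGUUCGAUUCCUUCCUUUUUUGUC
hsa-miR-12136: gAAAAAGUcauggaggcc

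The left edge of the copy lies in the promoter window of LOC101928626, a long non-coding RNA gene that runs away from the copy on the minus strand (chr1:628960-629259). It is shown because it holds the longest stretch of the copy's pseudogene DNA in the reference tables and because all 4 lists were without a peak there. Capitals mark the 198 bases that the annotation assigns to MTND1P23, and the lower-case bases lie outside the pseudogene. The nearest peak of any list began 166 bp beyond this window.
LOC101928626 promoter window: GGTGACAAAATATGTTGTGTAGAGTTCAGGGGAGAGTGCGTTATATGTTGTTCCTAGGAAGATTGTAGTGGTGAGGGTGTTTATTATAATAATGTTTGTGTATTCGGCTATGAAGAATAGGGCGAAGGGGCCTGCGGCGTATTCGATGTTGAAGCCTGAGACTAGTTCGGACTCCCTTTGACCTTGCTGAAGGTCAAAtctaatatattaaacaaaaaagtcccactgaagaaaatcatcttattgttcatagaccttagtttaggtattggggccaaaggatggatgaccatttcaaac

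Peaks lay on separate pieces of the copy and not along its whole length. RBMX peaks covered 1867 of the 6001 bp of the stretch in replicate 1 (31.1%) and 1774 bp in replicate 2 (29.6%). RPA1 peaks covered 1505 bp (25.1%) and 1213 bp (20.2%). Nearly all of the RPA1 coverage fell inside that of RBMX, with 100% of the RPA1 bases in replicate 1 and 99.5% in replicate 2. Of the RBMX bases, 80.6% and 68% were also under an RPA1 peak. Any list covered 2964 bp, and 3037 bp (50.6%) were under no peak. The longest uncovered piece ran from 632684 to 633828, 1145 bp that hold all of MTCO2P12 and MTATP8P1.

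**Figure D1:**
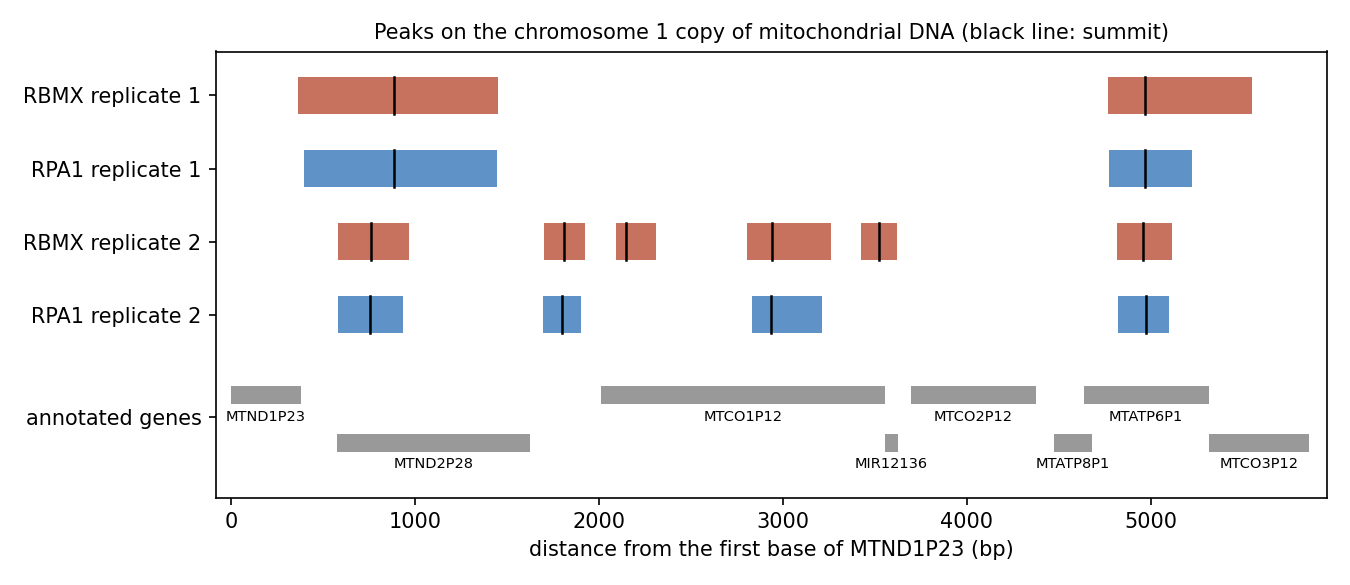
Peaks of each list along the copy, with the distance in bp from the first base of MTND1P23 on the x axis; bars are peaks, black lines are summits, and grey bars are annotated genes. The MTND2P28 and MTATP6P1 pieces have a peak in all 4 rows, while the stretch over MTCO2P12 and MTATP8P1 is empty in all 4.

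Common to all 4 lists were 2 pieces, together 631 bp. The first piece, 629646 to 629994 (349 bp), lay in the 5′ part of MTND2P28 and corresponds to 4476 to 4824 in ND2. The second, 633881 to 634162 (282 bp), lay in the middle of MTATP6P1 and corresponds to 8711 to 8992 in ATP6. On the second piece the summits of the 4 lists fell within 13 bp of each other, at 634028 for RBMX and 634030 for RPA1 in replicate 1 and at 634021 for RBMX and 634034 for RPA1 in replicate 2. On the first, both proteins had their summit at 629946 in replicate 1 and at 629823 for RBMX and 629818 for RPA1 in replicate 2. The proteins' summits thus lay 0 to 13 bp apart within a replicate number, against a median of 6 bp over the 107 peaks that RBMX shared with RPA1 in replicate 1 and 29 bp over 456 such peaks in replicate 2.

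The remaining pieces were those of replicate 2 and of the edges. A peak between MTND2P28 and MTCO1P12 ran from 630766 to 630985 for RBMX and from 630760 to 630962 for RPA1. On the mitochondrial genome this corresponds to the tRNA genes TRNA, TRNN and TRNC, and the peaks spanned the equivalent of the 31 bp between TRNN and TRNC (5730 to 5760), where the origin of light-strand replication lies. Within MTCO1P12, RBMX and RPA1 both had a peak with summits 8 bp apart (631867 to 632320 for RBMX, 631893 to 632271 for RPA1). MTCO1P12 had a peak in neither list of replicate 1. Those lists were called without a control by another caller, so this lack of a peak is not a measured difference in signal.

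RBMX of replicate 2 had peaks without an RPA1 partner at 631154 to 631370 in MTCO1P12 and at 632484 to 632683, over the end of MTCO1P12 and MIR12136. These are 2 of the 6 RBMX peaks on the copy, beside 23.7% of all RBMX peaks of that list without an overlapping RPA1 peak. In replicate 1 neither RBMX peak of the copy lacked an RPA1 partner, beside 58.5% of that list. They were the lowest RBMX peaks of the copy, with 20 and 23 tags at the summit, or 3 and 3.45 RPM, tags per 1000000 tags of the library (exact 95% Poisson intervals 1.83 to 4.63 and 2.19 to 5.18). The smallest peak of the RPA1 list had 16 tags, or 2.32 RPM, which lies inside both intervals, so a difference between the proteins was not detectable there at this depth. MTCO3P12 and MTND1P23 were touched in RBMX replicate 1 alone, by 234 bp and 15 bp of wide peaks centred elsewhere.

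The MTATP6P1 peak was the highest on the copy in every list. In replicate 1 it held 78 tags in 781 bp for RBMX and 70 tags in 455 bp for RPA1, with folds of 27.2 and 24.5. The MTND2P28 peak of replicate 1 held 41 tags in 1086 bp for RBMX and 48 tags in 1050 bp for RPA1, with folds of 13.2 and 16.4. Its −log10 p-value was 8.3 for RBMX and 12.1 for RPA1, against 40.4 and 47.4 at MTATP6P1. The MTATP6P1 peak exceeded the MTND2P28 peak in tags by 1.9 times for RBMX (exact 95% interval 1.29 to 2.85) and 1.46 times for RPA1 (0.996 to 2.15) in replicate 1, over peaks of unequal width. In replicate 2, where heights are tags at the summit, the same ratio was 1.46 for RBMX (1.07 to 2) and 1.69 for RPA1 (1.19 to 2.43). These intervals cover counting error only, and the peak caller's choice of the highest point is not in them.

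In replicate 2 the summits of the copy held between 20 and 105 tags for RBMX and between 26 and 88 tags for RPA1. At MTND2P28 the summit held 72 tags for RBMX and 52 for RPA1, with folds of 47.6 and 27. Between MTND2P28 and MTCO1P12 it held 33 tags for RBMX and 30 for RPA1, with folds of 22.2 and 15.9. At the MTCO1P12 peak that both proteins had, it held 46 tags for RBMX and 26 for RPA1, with folds of 30.6 and 13.9. Both proteins reached their highest point at MTATP6P1, with 105 tags for RBMX and 88 for RPA1 and folds of 69 and 45.2. Every shared peak of the copy was higher for RBMX than for RPA1, in tags, in RPM and in fold. These are the same summit signal on different scales and not separate measurements.

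**Figure D2:**
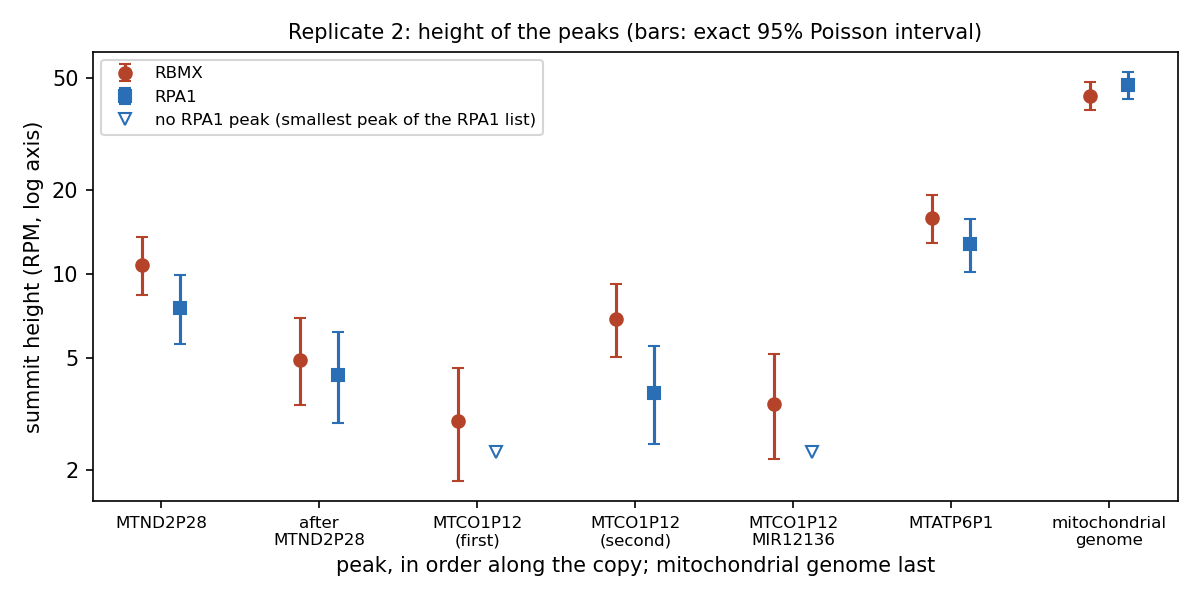
Summit height in RPM in replicate 2, on a log axis, for the peaks of the copy in order and for the mitochondrial genome; points are single lists, RBMX left of RPA1, bars are exact 95% Poisson intervals, and open triangles mark the smallest peak of the RPA1 list where it had none. The MTCO1P12 peak marked as second is the one both proteins had. The RBMX point lies above the RPA1 point at each of the 4 shared peaks of the copy (at MTATP6P1 15.8 against 12.8). The plotted intervals of the proteins overlap at all 4 of these peaks. They also overlap on the mitochondrial genome (43.2 against 47.2), where the limit on tags applies.

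Scaled to library size, the proteins differed most at the MTCO1P12 peak that both had. Its summit had 6.9 RPM for RBMX and 3.77 for RPA1, a ratio of 1.83 (exact conditional 95% interval 1.11 to 3.08). This was the largest ratio among the 456 peaks of RBMX that overlapped an RPA1 peak in replicate 2, whose median was 0.895 with quartiles of 0.764 and 1.03. Its interval makes no allowance for being the largest of many ratios. An interval wholly above 1 was found for 1 of the 4 shared peaks of the copy, beside 0.439% of the 456, that is, this peak and the one over EEF1A1, which encodes a translation elongation factor. EEF1A1 was named after its values were seen. An interval wholly below 1 was found for 0 of the 4, beside 8.55% of the 456. At MTND2P28 the ratio was 1.43 (0.988 to 2.09, rank 11 of 456), at MTATP6P1 1.23 (0.92 to 1.66, rank 25), and between MTND2P28 and MTCO1P12 1.14 (0.672 to 1.93, rank 51). All 4 exceeded the upper quartile, but the last 3 intervals include 1. Summed over the 4 peaks, RBMX had 256 tags and RPA1 had 196, a ratio of 1.35 (1.12 to 1.63).

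**Figure D3:**
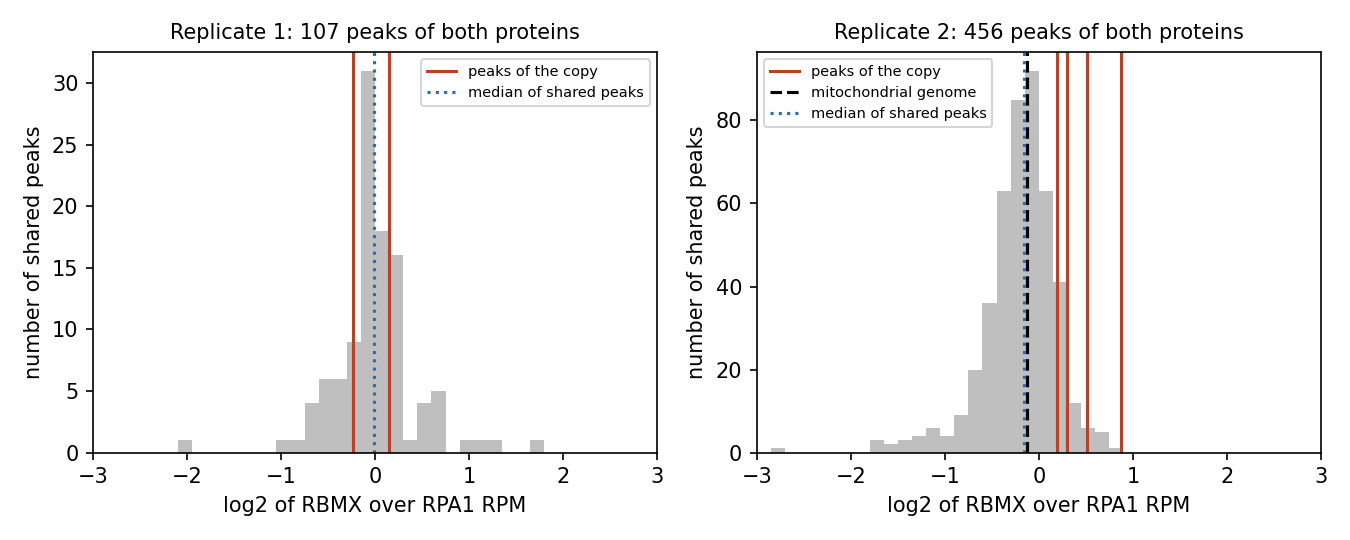
Distribution of the log2 ratio of RBMX to RPA1 RPM over all peaks of RBMX that overlap an RPA1 peak, for each replicate number; red lines are peaks of the copy, the black dashed line is the mitochondrial genome, and the blue dotted line is the median. In replicate 2 the 4 red lines lie right of the median, with tag ratios of 1.14 to 1.83 against a median of 0.895, and in replicate 1 they lie on either side of it.

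In replicate 1 the proteins had nearly the same number of tags on the copy. The 2 copy peaks held 119 tags for RBMX and 118 for RPA1, or 5.89 and 5.87 RPM, with an interval of the ratio from 0.771 to 1.31. These are tags within each list's own peaks, which covered 1867 bp for RBMX and 1505 bp for RPA1. Per kb of peak, RBMX had 99.9 tags and RPA1 had 154 at MTATP6P1, and 37.8 and 45.7 at MTND2P28. The tag ratios of replicate 1 make no allowance for these widths. The ratio was 1.11 at MTATP6P1 (0.792 to 1.55) and 0.85 at MTND2P28 (0.546 to 1.32), beside a median of 0.995 over the 107 shared peaks. At the same 2 sites in replicate 2, RBMX had 177 tags at the summits and RPA1 had 140, a ratio of 1.31 (1.04 to 1.64). Tags at a summit are another measure than tags within a peak, and whether the replicate numbers differ in this ratio was not tested. On the authors' fold at MTATP6P1, the log2 ratio of RBMX to RPA1 was 0.15 in replicate 1 and 0.61 in replicate 2. The lists of a replicate number share a peak caller and were compared for that reason, not as paired samples. With 2 samples a protein no test of RBMX against RPA1 was made. In replicate 2 each library had been scaled to the depth of its own input (by 0.959 for RBMX and 0.681 for RPA1), and 1 was added before division. The divisor was the same at every copy and mitochondrial peak of a list, so these folds do not correct for input at the site. Fold ratios were larger than tag ratios. At MTATP6P1 the fold ratio was 1.53 and the tag ratio 1.23, and over the 456 shared peaks the medians were 1.11 and 0.895.

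The mitochondrial genome was a single peak from 1 to 16569 in both lists of replicate 2, over all 37 mitochondrial genes, and had none in replicate 1. Replicate 1 lists were called without a control by another caller, so their lack of a mitochondrial peak is not a measured difference in signal. In replicate 2 the mitochondrial summit held 288 tags for RBMX, at 14950 in CYTB, the cytochrome b gene of respiratory complex III. For RPA1 the summit held 325 tags at 16210, which lies 187 bp past the last annotated gene, TRNP, in the control region that carries the promoters and the heavy-strand origin. These summits lay 1260 bp apart. In RPM the heights were 43.2 for RBMX (38.4 to 48.5) and 47.2 for RPA1 (42.2 to 52.6), a ratio of 0.916 (0.779 to 1.08 from counting error alone). The height has an upper limit in these files: with 1 tag kept per position and strand and tags extended to 200 bp, no position can hold more than 400 tags. The mitochondrial summits stood at 72% of that limit for RBMX and 81.2% for RPA1. The interval of their ratio does not include this limit, and RBMX and RPA1 were not ordered on the mitochondrial genome.

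Every copy peak of both replicate 2 lists stayed below the summit of the mitochondrial genome. That summit, at 14950 for RBMX and 16210 for RPA1, lies outside the part that the copy holds. Mitochondrial heights at the positions matching the copy's peaks were not at hand. At MTATP6P1 the ratio of the copy to the mitochondrial genome was 0.365 for RBMX (105 against 288 tags, exact 95% interval 0.289 to 0.457) and 0.271 for RPA1 (88 against 325 tags, 0.211 to 0.344). At MTND2P28 it was 0.25 for RBMX and 0.16 for RPA1, and the lowest copy peaks reached 0.0694 for RBMX and 0.08 for RPA1. The intervals of the proteins overlap at MTATP6P1. On the copy, the highest RBMX summit stood at 26.2% of the 400 tags and the highest RPA1 summit at 22%, while the largest summits of the lists held 399 and 398 tags. The mitochondrial values thus lie nearer to that limit than those of the copy, and these ratios are not ratios of bound DNA. In replicate 1 no such ratio can be given, and the regional background of 10000 bp was taken from the precipitated library itself.

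**Figure D4:**
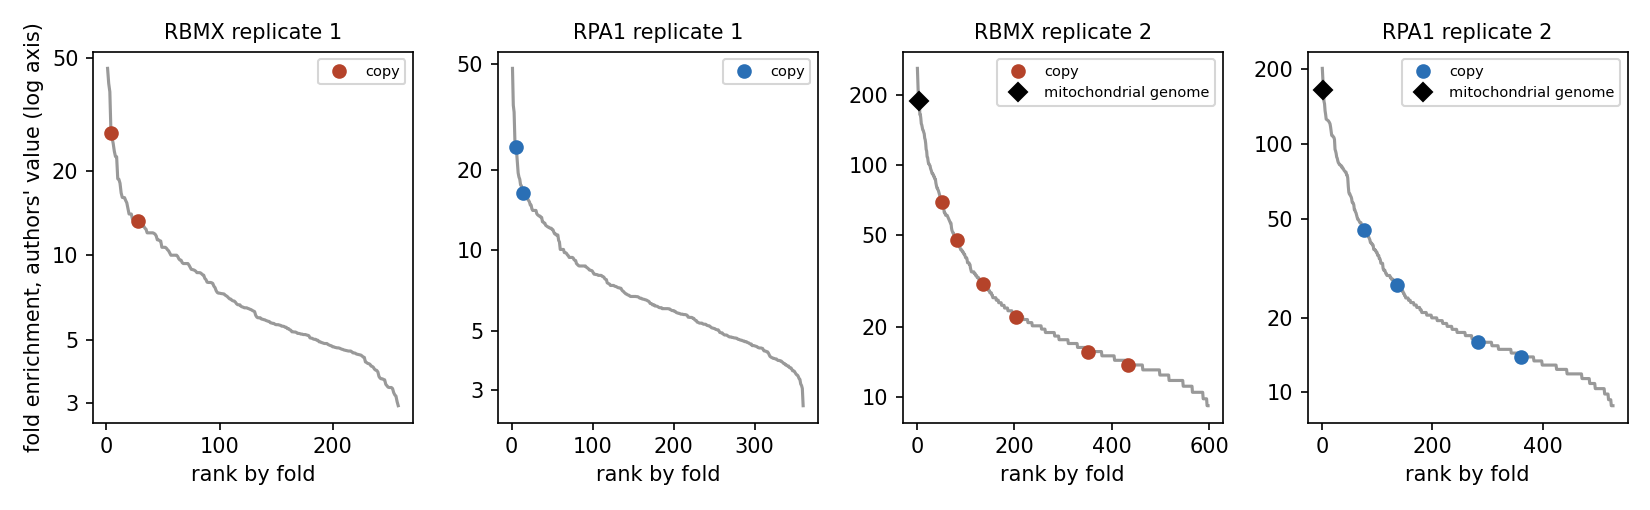
The authors' fold of every peak against its rank, on a log axis, for each list; coloured circles are peaks of the copy and black diamonds are the mitochondrial genome. The strongest copy peak ranks 4 of 258 and 5 of 360 for RBMX and RPA1 in replicate 1, and 52 of 598 and 76 of 527 in replicate 2.

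Within its list, the MTATP6P1 peak ranked 4 of 258 for RBMX and 5 of 360 for RPA1 in replicate 1 by fold, and 52 of 598 for RBMX and 76 of 527 for RPA1 in replicate 2. By −log10 p-value its replicate 1 ranks were 14 and 9. The MTND2P28 peak of replicate 1 ranked 28 for RBMX and 14 for RPA1 by fold, and by −log10 p-value 82 for RBMX and 60 for RPA1. In replicate 2 the other copy peaks ranked between 82 and 434 for RBMX and between 136 and 361 for RPA1, around median folds of 17.6 and 16.9. The mitochondrial genome ranked 5 for RBMX and 3 for RPA1. Outside the stretch, the next peak on chromosome 1 was 444.8 kb away for RBMX (fold 6.49) and 234.4 kb away for RPA1 (fold 8.86) in replicate 1, and in replicate 2 it began at 31431782 for RBMX (fold 14.35) and 31431873 for RPA1 (fold 24), 30796.8 kb and 30796.9 kb away.

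By symbol, the annotation holds 486 nuclear copies of mitochondrial genes, counting MTRNR2L genes with the pseudogenes, and 7 of them lie in the stretch. RBMX peaks overlapped 5 in replicate 1 (1.03%) and 3 in replicate 2 (0.617%), and RPA1 peaks overlapped 3 in each (0.617%). Of all annotated pseudogenes the lists overlapped 0.0890% for both proteins in replicate 1, and 0.190% for RBMX and 0.107% for RPA1 in replicate 2. Of all annotated genes they overlapped 0.286% for RBMX and 0.458% for RPA1 in replicate 1, and 0.253% and 0.190% in replicate 2. Most of the overlapped mitochondrial pseudogenes lay in the stretch on chromosome 1, whose choice fixed those counts. Outside it, each replicate 1 list overlapped 1 of 479 (0.209%), and each replicate 2 list overlapped 0 of 479.

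The pseudogene outside the stretch was MTND4P12 on chromosome 5 (134926661 to 134928036), a pseudogene of the complex I subunit ND4 inside PCBD2 and 1 of 6 neighbouring pseudogenes that run from MTCYBP18 to MTND3P25 in inverted mitochondrial order. Its peak ran from 134926660 to 134927237 with 19 tags and a fold of 8.51 for RBMX in replicate 1, and from 134926726 to 134927244 with 18 tags and a fold of 9.55 for RPA1. Both summits were at 134927058, which corresponds to about 11738 in ND4. At 0.941 RPM for RBMX (0.566 to 1.47) and 0.896 for RPA1 (0.531 to 1.42), these tag counts did not differ beyond counting error. They are tags within peaks of 578 bp for RBMX and 519 bp for RPA1. The peaks' −log10 p-values were 5.92 for RBMX and 5.73 for RPA1, so neither would pass the cutoff of 1e-12 used in replicate 2. Neither list of replicate 2 had a peak there, and their smallest peaks had 1.95 RPM for RBMX and 2.32 for RPA1 at the summit, a measure that differs from tags within a peak.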

How the data were processed

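The 4 peak lists came from chromatin immunoprecipitation through the Flag tag, on hg38 per the submitters' processing notes. Replicate 1 peaks were called with MACS 1.4.2 without a control at a cutoff of 1e-05, with tags of 50 bp, per the file headers; tags deposited are counts within a peak, the deposited score is minus 10 times log10 of p, printed here divided by 10, and the deposited fold is a ratio to the regional background. Replicate 2 peaks were called with MACS2 2.2.4 against the input at a cutoff of 1e-12, with tags of 150 bp and no local background, per the file headers; the deposited pileup is a signal at the summit, and the −log10 of p-values or q-values and the fold ratio were deposited as the caller gave them. Dividing the pileup by the library scale returned whole tags within 0.01 at every summit. Input entered the folds of the copy and mitochondrial peaks only as a single value per list, not as reads at the site.

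The replicate number 1 was given in accession order and is not taken as a pairing of samples. Overlap meant at least 1 bp. Ratios of tags have exact conditional binomial intervals at 95%, for counting error only. Genes came from RefSeq (GRCh38.p14, 58998 placed genes); rows with scaffold coordinates were left out. Named genes are the listed pseudogenes, other genes in the stretch, mitochondrial genes and any nuclear mitochondrial pseudogene under a peak. The members and lists were chosen with earlier results of these data known. Python 3.11.15, pandas 2.3.3, NumPy 2.4.6, SciPy 1.17.1 and matplotlib 3.10.9 were used, and the functions were tested on simulated peaks.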

Additional observations from a re-analysis of the deposited data

How the results depend on the processing

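Of 51 alternative values, 34 stayed within the interval, spread or 1.5-fold range used for them, and 2 were compared in sign only and kept it. Another 14 moved beyond that range and 1 reversed in sign. Taking 100 bp either side of each summit in place of whole peaks, the share of the copy covered was 6.7% for both proteins in replicate 1, and 20.1% for RBMX and 13.4% for RPA1 in replicate 2. A p-value of 1e-12 in every list removed the MTND2P28 peak of RBMX in replicate 1 and both MTND4P12 peaks, and left a share of 13% there, with 2 mitochondrial pseudogenes overlapped. When a peak had to cover 50% of the gene body, RBMX overlapped 2 in replicate 1, and both replicate 2 lists overlapped 0. Weighting all copy peaks by width lowered the ratio of copy to mitochondrial summit to 0.191 for RBMX and 0.153 for RPA1. Ranked by −log10 p-value, the strongest copy peak was 14 for RBMX and 9 for RPA1 in replicate 1. The mean log2 ratio of RBMX to RPA1 fold at MTATP6P1 was 0.38 and ranged from 0.15 to 0.61 when 1 replicate number was left out. This mean joins ratios of folds from different callers. The 0.61 of replicate 2 is a fold ratio of 1.53, beside a tag ratio of 1.23 at the same peak. In replicate 1 the difference of −log10 p-values at MTATP6P1 was -6.93, opposite in sign to the fold ratio, and the cause was not tested. Fold times width gave 1.06 in replicate 2. Dividing tag ratios by the median of shared peaks, an alternative chosen after seeing the data, gave 1.51 in replicate 2 and 1.01 in replicate 1. No paired analysis was possible because no test was made and the number 1 is only an accession order; RBMX and RPA1 were set side by side within a replicate number for their shared caller. The ratio of copy to mitochondrial genome could not be recomputed without a replicate, since replicate 1 had no mitochondrial peak.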
